A study of Mus musculus with 8 samples.

Results

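The genes described here are 45 genes of DNA replication and mitosis, chosen by name: 23 encode proteins that license, start, copy or feed the replication fork, and 22 encode proteins that drive or carry out mitosis. All 45 symbols were found among the 25124 genes of the deposited expression table, and all 45 passed the minimum level used for testing. Their RNA was measured in mouse osteoclast precursors, bone marrow macrophages that become bone-resorbing osteoclasts when given RANKL, the TNF-family cytokine that commits them to that fate. In the labels the marrow came from C57BL/6 mice aged 6 to 8 weeks, whereas the culture methods of the study name male ICR mice, so the strain cannot be stated with certainty. Marrow cells were kept in M-CSF, the growth and survival factor of macrophages, at 5 ng/mL for 16 h and then at 30 ng/mL for 3 days.

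Adherent cells were then cultured for 48 h in 4 ways, and all 4 contained M-CSF at 30 ng/mL. The group named M-CSF had nothing else, the PRDX1 group had 200 nM recombinant peroxiredoxin 1, the RANKL group had 100 ng/mL RANKL, and the RANKL + PRDX1 group had both at these doses. PRDX1 is an intracellular enzyme that removes peroxides, and here it was added to the medium as a His-tagged protein made in E. coli, from which endotoxin had been removed. No gene was deleted in any group. Each group had 2 sequenced RNA libraries, and nothing in the labels says whether these came from separate animals or cultures, so p-values measure only the spread between such libraries. The question asked of these genes was how their RNA differed between the 4 groups, and whether replication genes and mitotic genes differed alike.

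Cells prepare replication in G1, when Cdc6 and Cdt1 load the ring-shaped MCM helicase onto DNA, and copy their genome in S phase. In G2 and mitosis, Cdk1 with A- and B-type cyclins condenses and divides the chromosomes, and the anaphase-promoting complex then destroys these cyclins. Transcription follows the same order: E2F factors drive replication genes near the G1/S border, while mitotic genes are repressed early in the cycle by the DREAM complex and later driven by MuvB with B-MYB and FOXM1, which reach promoters through a CHR element and nearby CCAAT boxes bound by NF-Y. M-CSF is the mitogen of macrophages, and osteoclast precursors go through a few divisions before they leave the cycle and fuse.

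The promoters of the members carried different letters in the replication and the mitotic genes. RefSeq promoters on GRCm38.p6, from 250 bases before to 50 bases after the start of transcription, matched 19 of the 23 replication genes and 18 of the 22 mitotic genes. Not matched were Mcm4, Gins1, Gins2 and Ccne2, and Ccna2, Aurkb, Tpx2 and Foxm1. The letters searched on both strands were TTTCCCGC, TTTCGCGC, TTTGCCGC and TTTGGCGC for E2F, TTTGAA for CHR and CCAAT for the CCAAT box. E2F letters were in 8 of 19 replication promoters (42.1%) and 1 of 18 mitotic promoters (5.56%), against 2.88% of all 18344 promoters. CHR letters were in 2 of 19 replication promoters (10.5%) and 13 of 18 mitotic promoters (72.2%), against 15.7% of all promoters. The CCAAT box was in 13 of 19 (68.4%) and 16 of 18 (88.9%), against 38.8% of all, and all 13 mitotic promoters with CHR letters also held a CCAAT box. In 12 of these 13 the CHR letters began within 40 bases of the start, a distance chosen after the positions were seen, and this placed them in 66.7% of matched mitotic promoters against 3.3% of all promoters. A match of letters shows neither binding nor use of the promoter.

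**Figure D1:**
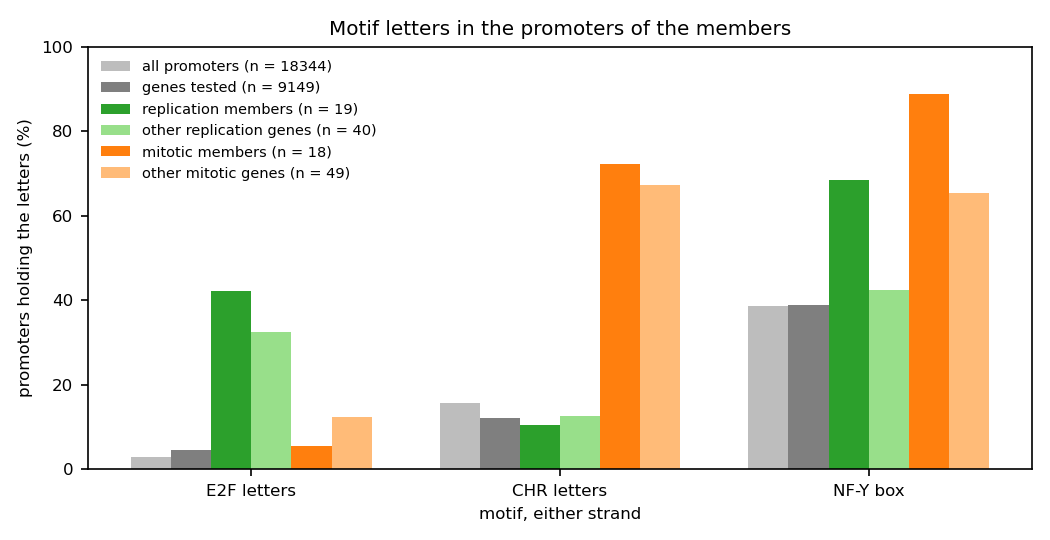
Share of promoters (vertical axis, %) that hold E2F letters, CHR letters or the CCAAT box bound by NF-Y on either strand (horizontal axis), for all matched promoters, the tested genes, the members and the other replication and mitotic genes, with the number of promoters in the key. E2F letters stand out in replication genes (42.1% of member promoters) and CHR letters in mitotic genes (72.2%).

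Stretches of 150 bases, from 120 bases before to 29 bases after the start counted as base 0, are shown for 5 members to let the letters be compared: Mcm6 and Mcm7, replication promoters with E2F letters, and Ccnb2, Kif23 and Cdc20, mitotic promoters with CHR letters whose genes were called lower with PRDX1. They lie on the minus strand of mm10 (GRCm38) at chr1:128359676-128359825, chr5:138171854-138172003, chr9:70421525-70421674, chr9:61946770-61946919 and chr4:118437314-118437463. Capitals mark E2F, CHR and CCAAT letters on either strand, in the order of the promoter from 5′ to 3′.
Mcm6: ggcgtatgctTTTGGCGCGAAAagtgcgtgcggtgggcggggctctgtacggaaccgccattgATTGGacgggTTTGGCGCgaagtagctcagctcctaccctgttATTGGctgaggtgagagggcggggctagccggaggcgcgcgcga
Mcm7: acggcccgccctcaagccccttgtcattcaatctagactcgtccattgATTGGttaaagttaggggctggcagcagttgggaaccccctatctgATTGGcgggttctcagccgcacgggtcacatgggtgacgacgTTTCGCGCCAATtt
Ccnb2: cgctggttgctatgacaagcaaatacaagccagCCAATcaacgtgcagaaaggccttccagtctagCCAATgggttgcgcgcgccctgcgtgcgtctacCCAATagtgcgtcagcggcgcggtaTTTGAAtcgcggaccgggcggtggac
Kif23: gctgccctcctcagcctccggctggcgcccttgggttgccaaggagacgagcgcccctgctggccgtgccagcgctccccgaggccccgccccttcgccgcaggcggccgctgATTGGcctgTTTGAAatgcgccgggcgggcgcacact
Cdc20: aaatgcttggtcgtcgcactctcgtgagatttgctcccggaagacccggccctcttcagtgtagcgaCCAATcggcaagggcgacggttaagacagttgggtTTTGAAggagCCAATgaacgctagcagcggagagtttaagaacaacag
In Mcm6, 2 of the 3 E2F matches overlap, beginning at bases -110 and -106, and the third begins at base -47. In Mcm7 the E2F letters begin at base 16 and share their last base with a CCAAT box. The CHR letters begin at base 4 in Ccnb2, base 2 in Kif23 and base -18 in Cdc20. Each of these has a CCAAT box upstream of its CHR letters, at base -21 in Ccnb2, base -7 in Kif23 and base -53 in Cdc20.

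By the totals recovered from the FPKM values, the libraries held 27284693 to 46171786 reads. Every member had at least 608 recovered reads in each library, the lowest count being that of Ccne1. Values are FPKM, reads scaled to the transcript length and to the total reads of the library, and tests were made by limma on log2(FPKM + 1). A gene is said to have risen or fallen when its Benjamini-Hochberg adjusted p over the 11700 genes tested was under 0.05, and is said to be called when its fold change was also at least 1.5. Errors of fold changes are standard errors. Macrophage markers summed to 10326 to 17766 FPKM over 10 genes in every library, most of it Lyz2, at 8326 to 14981.5 FPKM. The mean sum was 16880 FPKM in M-CSF, 17076 in PRDX1, 10521 in RANKL and 14002.5 in RANKL + PRDX1. In RANKL against M-CSF, 6 of the 10 were called lower and 1 higher, against 9.96% and 11.8% of all genes. Osteoclast markers summed to 44.8 and 45.4 FPKM in M-CSF, 92.4 and 88.1 in PRDX1, 1884 and 1987 in RANKL and 251 and 259 in RANKL + PRDX1. In PRDX1 against M-CSF, 3 of the 9 tested were called higher and 1 lower, against 3.8% and 1.99% of all genes. In bulk RNA, fewer cycling cells and less of each RNA per cycling cell cannot be told apart. By a daily viability assay of precursors in M-CSF, the study reported no influence of PRDX1 on proliferation. That assay does not measure these RNAs.

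All 45 members were expressed in every library. Per length, Pcna was the most abundant in every library, at 219 to 367 FPKM. Cenpf, at 5.82 to 14.6 FPKM, and Cdc6, at 8.34 to 12.8 FPKM, had the lowest means over the 8 libraries, and Cdc6 had the lower mean of them in M-CSF and RANKL and Cenpf in the groups with PRDX1. The 2 PRDX1 libraries held the 2 lowest levels of the 8 libraries in 22 of 22 mitotic genes and in 14 of 23 replication genes, as in 20.9% of all genes tested. The 2 RANKL libraries held the 2 highest levels in 14 mitotic and 12 replication genes, as in 31.9% of all genes tested. Cdc45 and Cdt1 were lowest in M-CSF, Pcna and Ccne1 were lowest in RANKL, and Gins2 was lowest in RANKL + PRDX1.

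**Figure D2:**
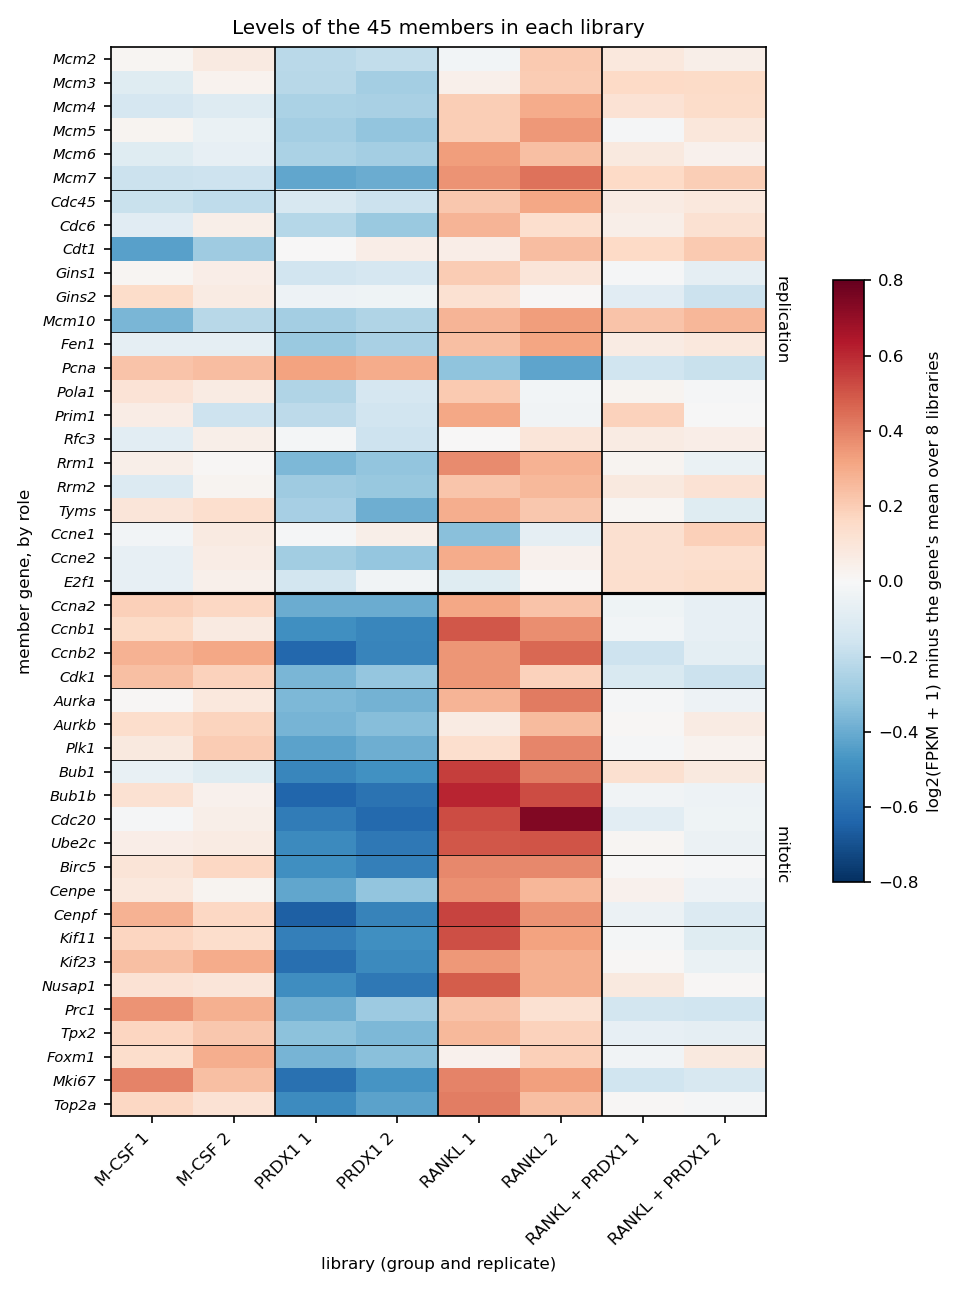
Level of each member (rows, grouped by role, replication genes above the thick line) in each library (columns), as log2(FPKM + 1) minus the mean of that gene over the 8 libraries, from -0.65 to 0.74. The mitotic rows are uniformly lowest in the 2 PRDX1 libraries, and the replication rows differ less, with Pcna, Cdt1 and Ccne1 following other orders.

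Averaged over its genes, each set stood in 4 separate levels. The mean log2(FPKM + 1) of the 22 mitotic genes was 4.95 and 4.98 in PRDX1, 5.40 and 5.39 in RANKL + PRDX1, 5.59 and 5.58 in M-CSF and 5.80 and 5.77 in RANKL. The mean of the 23 replication genes was 5.07 and 5.07 in PRDX1, 5.20 and 5.24 in M-CSF, 5.33 and 5.32 in RANKL + PRDX1 and 5.40 and 5.41 in RANKL. The 2 orders differ in the place of M-CSF, which lies above RANKL + PRDX1 for mitotic genes and below it for replication genes. The replication mean minus the mitotic mean was -0.39 and -0.34 in M-CSF and -0.40 and -0.36 in RANKL, but 0.12 and 0.092 in PRDX1 and -0.075 and -0.068 in RANKL + PRDX1. The groups with PRDX1 and those without it did not overlap in this difference, while M-CSF and RANKL did. These are descriptions of chosen genes, and no p-value is given for them.

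**Figure D3:**
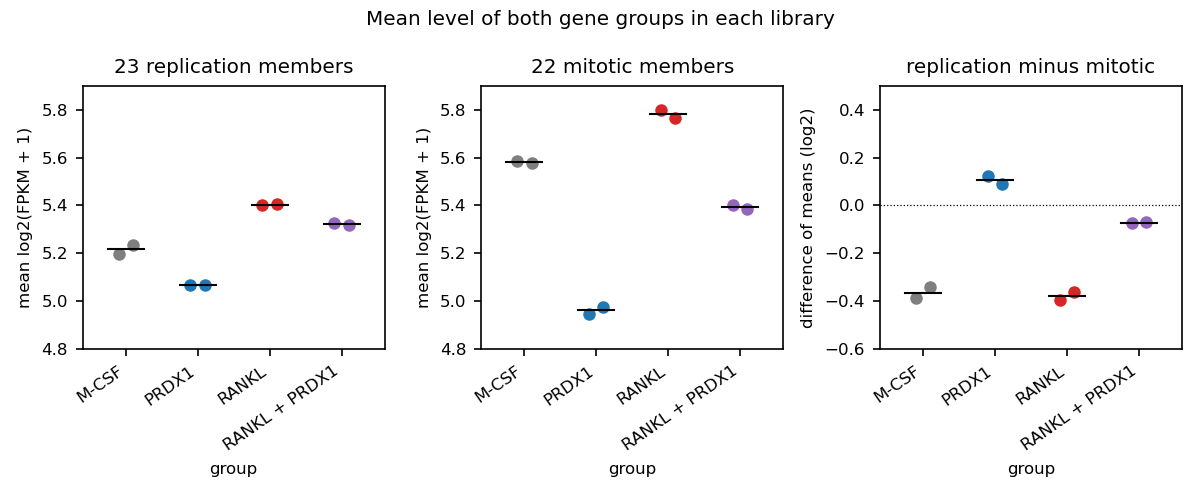
Mean log2(FPKM + 1) of the 23 replication genes (left) and 22 mitotic genes (centre) and their difference (right) in each library, with the group mean as a line. The difference lies at 0.12 and 0.092 in PRDX1 against -0.39 and -0.34 in M-CSF, and the vertical axes do not start at 0.

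Added to M-CSF alone, PRDX1 went with lower RNA of each of the 22 mitotic members, by between 25.0% and 45.4% on the FPKM + 1 scale. Of the 22 mitotic genes 22 fell and 13 were called lower, against 17.6% of all tested genes that fell and 1.99% that were called lower. Their median log2 fold change was -0.61, against -0.039 over all genes tested. In all 22, both PRDX1 libraries lay below both M-CSF libraries, as did 39.7% of all genes tested. Of the 23 replication genes none was called in either direction, 13 fell, Cdt1 rose and 9 did not pass the test, with a median of -0.18. The PRDX1 and M-CSF libraries did not overlap in 18 replication genes. Of these 15 were lower, beside the 39.7% given above, and 3 were higher, against 26.1% of all genes tested.

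The cyclins and the kinase they activate were among the genes that fell. Ccnb2, a B-type cyclin, had 67.1 and 68.4 FPKM in M-CSF, 35.3 and 37.8 in PRDX1, 70.7 and 76.1 in RANKL and 48.9 and 52.0 in RANKL + PRDX1. Its PRDX1 libraries lay below all others and its RANKL + PRDX1 libraries came next, without overlap. It fell the most of the 45 genes, with log2 fold change -0.87 ± 0.059, adjusted p = 4.64e-06. Ccnb1, the cyclin that takes Cdk1 into mitosis, had 63.0 and 59.6 FPKM in M-CSF, 40.1 and 39.1 in PRDX1, 80.4 and 73.6 in RANKL and 55.8 and 53.9 in RANKL + PRDX1, and the 4 groups did not overlap. It fell with log2 fold change -0.62 ± 0.057, adjusted p = 3.53e-05. Cdk1, the mitotic kinase itself, had 46.3 and 44.5 FPKM in M-CSF, 30.1 and 31.3 in PRDX1, 50.0 and 44.4 in RANKL and 35.7 and 34.5 in RANKL + PRDX1. It was lower in both PRDX1-treated groups than in their controls, although M-CSF and RANKL overlapped, and fell with log2 fold change -0.55 ± 0.063, adjusted p = 0.000152, short of the fold needed for a call. Ccna2, the S- and M-phase cyclin, fell by 32.7% and was also short of it, and 12.5% of its exon bases are shared with Exosc9.

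The mitotic kinases fell by similar amounts and none was called. Plk1, which matures centrosomes and opens mitosis, had 41.7 and 45.5 FPKM in M-CSF, 29.1 and 29.8 in PRDX1, 43.4 and 51.9 in RANKL and 39.1 and 40.3 in RANKL + PRDX1. Aurkb, the kinase of the chromosomal passenger complex that corrects faulty attachments, had 40.8 and 42.1 FPKM in M-CSF, 28.5 and 29.0 in PRDX1, 38.8 and 44.3 in RANKL and 37.3 and 38.9 in RANKL + PRDX1. For both, the PRDX1 libraries lay apart below all others, while M-CSF and RANKL overlapped. The log2 fold changes were -0.55 ± 0.08 (adjusted p = 0.000675) for Plk1, -0.51 ± 0.065 (adjusted p = 0.000285) for Aurkb and -0.41 ± 0.06 (adjusted p = 0.000672) for Aurka, the spindle pole kinase, whose fall was the smallest of the 22.

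Of the 4 checkpoint and anaphase-promoting genes, 3 were called lower, against 1.99% of all genes tested. Cdc20, the activator of the anaphase-promoting complex, had 47.0 and 48.8 FPKM in M-CSF, 31.8 and 30.4 in PRDX1, 68.5 and 79.8 in RANKL and 44.7 and 46.3 in RANKL + PRDX1. Bub1b, which encodes the checkpoint protein BUBR1 that holds Cdc20 back, had 34.0 and 31.9 FPKM in M-CSF, 19.7 and 20.3 in PRDX1, 48.1 and 45.1 in RANKL and 30.4 and 30.3 in RANKL + PRDX1. Bub1, the checkpoint kinase at kinetochores, had 24.2 and 23.6 FPKM in M-CSF, 17.3 and 17.9 in PRDX1, 37.7 and 34.1 in RANKL and 27.8 and 26.8 in RANKL + PRDX1. In each the PRDX1 libraries were the lowest and the RANKL libraries the highest, and only in Bub1 did RANKL + PRDX1 lie above M-CSF. The log2 fold changes were -0.69 ± 0.057 (adjusted p = 1.6e-05) for Bub1b, -0.61 ± 0.07 (adjusted p = 0.000155) for Cdc20 and -0.42 ± 0.062 (adjusted p = 0.000703) for Bub1, which was not called. Ube2c, the ubiquitin-conjugating enzyme of the complex, was called at -0.60 ± 0.045 (adjusted p = 8.98e-06). Over all its annotated exons, 22.8% of the bases are shared with Tnnc2 on the other strand. Whether its counted transcript, 923 bases long, holds these shared bases was not checked.

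Spindle and kinetochore genes held 6 of the 13 calls. These were 4 of 5 spindle genes and 2 of 3 kinetochore and passenger genes, against 1.99% of all genes called lower. Kif23, a kinesin of the central spindle needed for cytokinesis, had 47.0 and 48.7 FPKM in M-CSF, 25.6 and 27.5 in PRDX1, 50.5 and 48.4 in RANKL and 39.8 and 38.0 in RANKL + PRDX1. Its PRDX1 libraries were the lowest and M-CSF and RANKL overlapped, and it fell with log2 fold change -0.83 ± 0.056, adjusted p = 4.83e-06. Birc5, which encodes survivin of the passenger complex, had 111 and 116 FPKM in M-CSF, 73.4 and 70.5 in PRDX1, 135 and 135 in RANKL and 104 and 102 in RANKL + PRDX1, with no overlap between the 4 groups. It fell with log2 fold change -0.65 ± 0.045, adjusted p = 5.51e-06. Kif11, Nusap1, Prc1 and Cenpf were called as well, at -0.68, -0.64, -0.66 and -0.81, and encode a kinesin that separates spindle poles, a spindle microtubule binder, a central spindle bundler and a kinetochore protein, with 11.1% of the exon bases of Prc1 shared with Rccd1. Tpx2 and Cenpe fell by 0.53 and 0.42 on the log2 scale and were not called.

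The proliferation marker Mki67 had 102 and 91.1 FPKM in M-CSF, 50.6 and 55.4 in PRDX1, 102 and 96.9 in RANKL and 68.9 and 70.5 in RANKL + PRDX1. M-CSF and RANKL overlapped, and the groups with PRDX1 lay apart below them. Mki67 fell with log2 fold change -0.85 ± 0.064, adjusted p = 9.9e-06, the second largest change. Top2a, the topoisomerase that untangles sister chromatids, had 124 and 120.3 FPKM in M-CSF, 78.0 and 82.2 in PRDX1, 147 and 131 in RANKL and 112 and 110.3 in RANKL + PRDX1, with no overlap between the groups, and fell with log2 fold change -0.61 ± 0.059, adjusted p = 5.28e-05. Foxm1, a transcription factor that drives mitotic genes, had 20.2 and 22.6 FPKM in M-CSF, 13.9 and 14.3 in PRDX1, 18.7 and 21.0 in RANKL and 17.9 and 19.3 in RANKL + PRDX1. Its PRDX1 libraries lay below the rest, among which M-CSF overlapped RANKL and RANKL overlapped RANKL + PRDX1. It fell with log2 fold change -0.57 ± 0.077, adjusted p = 0.000438, just short of a call.

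Several of these falls lay near the fold of 1.5, so the count of calls moved with the scaling. It was 10 under quantile normalization, 9 under upper quartile scaling and 9 with voom on the recovered reads, and 12 or 13 with any 1 library left out. Among the members followed through these settings, the calls of Top2a, Ccnb1 and Cdc20 were lost in some, at log2 fold changes of -0.55 to -0.58 with an adjusted p still under 0.05, and Foxm1 and Plk1 were called in some.

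Among the replication genes, the 3 of deoxynucleotide supply had the lowest median, at -0.37. Tyms, thymidylate synthase, had 22.6 and 23.2 FPKM in M-CSF, 17.3 and 15.8 in PRDX1, 25.9 and 24.6 in RANKL and 21.3 and 19.6 in RANKL + PRDX1, and fell with log2 fold change -0.45 ± 0.067, adjusted p = 0.000837. Its row carries a noncoding transcript of the locus. Rrm2, the S-phase subunit of ribonucleotide reductase, had 71.6 and 78.3 FPKM in M-CSF, 63.1 and 62.3 in PRDX1, 90.2 and 92.7 in RANKL and 81.7 and 83.8 in RANKL + PRDX1. Both genes were lowest in PRDX1 without overlap. The log2 fold changes of Rrm2 and of Rrm1, the other subunit, were -0.25 ± 0.052 (adjusted p = 0.00526) and -0.37 ± 0.053 (adjusted p = 0.000682).

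Of the 6 helicase genes Mcm2 to Mcm7, 5 fell and none was called, against 17.6% of all genes that fell and 1.99% that were called lower. Mcm2 had 43.3 and 45.1 FPKM in M-CSF, 36.8 and 37.3 in PRDX1, 42.3 and 49.7 in RANKL and 45.5 and 44.4 in RANKL + PRDX1. Mcm5 had 65.7 and 62.3 FPKM in M-CSF, 53.5 and 51.8 in PRDX1, 74.3 and 82.5 in RANKL and 64.4 and 69.1 in RANKL + PRDX1. In both, the PRDX1 libraries lay below the other 6, and M-CSF overlapped RANKL + PRDX1. The falls were -0.25 ± 0.071 (adjusted p = 0.0246) for Mcm2 and -0.28 ± 0.062 (adjusted p = 0.00837) for Mcm5. Mcm4 did not pass the test, at -0.14 ± 0.051 (adjusted p = 0.0727).

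Origin licensing genes did not move together. Cdc6, the loader of the helicase, had 9.76 and 10.8 FPKM in M-CSF, 8.77 and 8.34 in PRDX1, 12.8 and 11.6 in RANKL and 10.8 and 11.5 in RANKL + PRDX1, and fell with log2 fold change -0.24 ± 0.078, adjusted p = 0.0417. Cdt1, its partner in licensing, had 26.9 and 29.9 FPKM in M-CSF, 36.9 and 38.2 in PRDX1, 38.1 and 43.8 in RANKL and 41.2 and 42.7 in RANKL + PRDX1. Its M-CSF libraries were the lowest of all, and RANKL overlapped both other groups. Cdt1 rose with log2 fold change 0.39 ± 0.074, adjusted p = 0.0033, the only replication gene to do so. Cdc45, which completes the active helicase, had 16.3 and 16.0 FPKM in M-CSF, 16.9 and 16.4 in PRDX1, 21.8 and 23.2 in RANKL and 19.5 and 19.8 in RANKL + PRDX1, with log2 fold change 0.042 ± 0.058, adjusted p = 0.636 and a 95% interval of -0.088 to 0.17. Mcm10, which helps to start the fork, had 17.3 and 19.2 FPKM in M-CSF, 18.5 and 18.9 in PRDX1, 27.4 and 28.7 in RANKL and 26.6 and 27.3 in RANKL + PRDX1, with M-CSF and PRDX1 overlapping and a 95% interval of -0.11 to 0.18. Gins1 fell at -0.18 ± 0.059 (adjusted p = 0.0463). Gins2, which shares 67.3% of its annotated exon bases with Gse1 on the other strand, had -0.14 ± 0.059 (adjusted p = 0.0976).

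At the fork, Pcna, the sliding clamp that also serves DNA repair, had 345 and 348 FPKM in M-CSF, 367 and 361 in PRDX1, 234 and 219 in RANKL and 263 and 259 in RANKL + PRDX1. Its PRDX1 libraries were slightly above those of M-CSF, and both groups with RANKL lay far below. The difference with PRDX1 did not pass the test (log2 fold change 0.07 ± 0.044, adjusted p = 0.266). Pola1, the catalytic subunit of the priming polymerase, fell at -0.28 ± 0.08 (adjusted p = 0.0268), and Fen1, the flap nuclease, at -0.21 ± 0.049 (adjusted p = 0.0103), although 84.2% of the exon bases of Fen1 are shared with Gm10143, an antisense transcript, and Tmem258. Prim1 and Rfc3, a primase subunit and a clamp loader subunit, overlapped between the groups, with 95% intervals of -0.38 to 0.13 and -0.23 to 0.085.

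The cyclins and the factor of the G1/S border differed among themselves. Ccne2, an E-type cyclin, had 19.2 and 21.0 FPKM in M-CSF, 16.4 and 16.0 in PRDX1, 25.0 and 20.6 in RANKL and 22.1 and 22.2 in RANKL + PRDX1, and fell with log2 fold change -0.29 ± 0.085, adjusted p = 0.0273, with 17.4% of its exon bases shared with Ints8. Ccne1, the other E-type cyclin, had 14.5 and 15.6 FPKM in M-CSF, 14.7 and 15.3 in PRDX1, 11.5 and 14.0 in RANKL and 16.2 and 17.0 in RANKL + PRDX1. E2f1, the activator of replication genes, had 20.7 and 22.4 FPKM in M-CSF, 19.5 and 21.3 in PRDX1, 20.3 and 21.8 in RANKL and 23.9 and 24.1 in RANKL + PRDX1. In both, M-CSF and PRDX1 overlapped, and the 95% intervals of the log2 fold change were -0.20 to 0.19 for Ccne1 and -0.22 to 0.076 for E2f1.

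**Figure D4:**
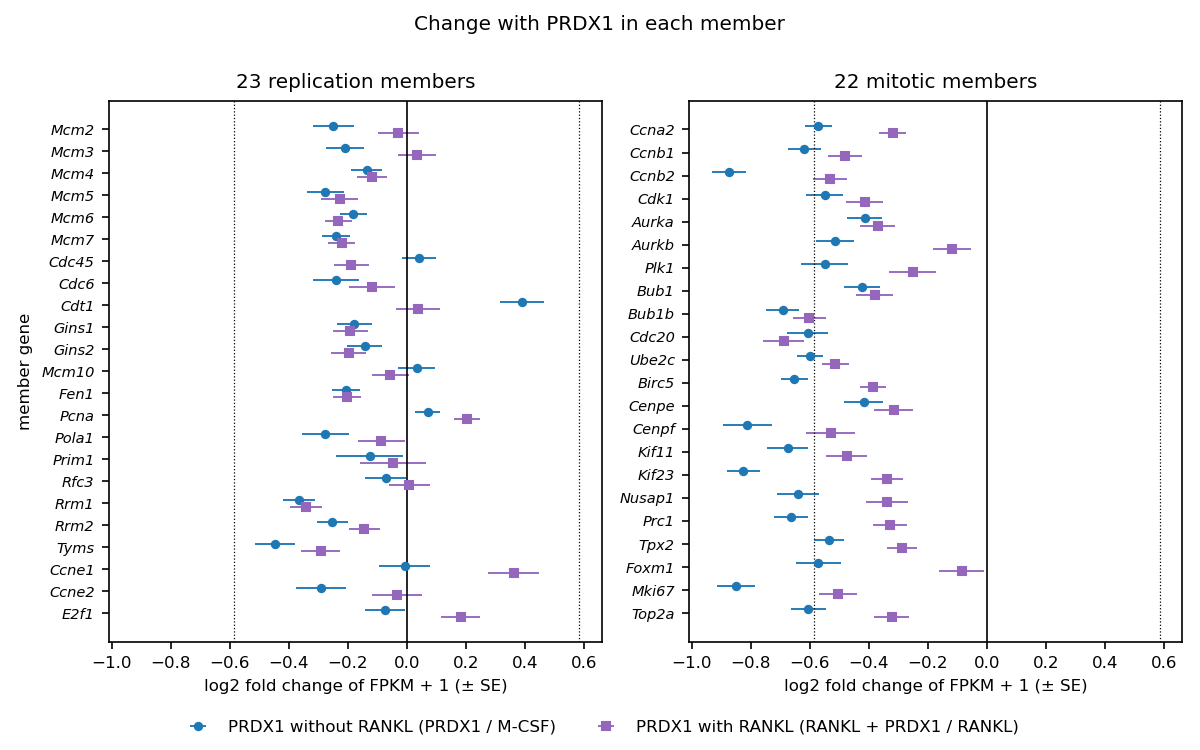
Log2 fold change with PRDX1 (horizontal axis, with standard error) in each replication gene (left) and mitotic gene (right), without RANKL (circles) and with RANKL (squares). Dotted lines mark a fold change of 1.5; all mitotic circles lie between -0.41 and -0.87, while the replication circles lie between 0.39 (Cdt1) and -0.45 (Tyms).

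In the presence of RANKL, PRDX1 went with lower RNA of most mitotic members again. Of the 22 mitotic genes 20 fell, against 25.6% of all genes tested, and 2 were called lower, Bub1b and Cdc20, against 4.17% of all genes. Their median log2 fold change was -0.38, against -0.057 over all genes. Both RANKL + PRDX1 libraries lay below both RANKL libraries in 20 mitotic genes and 13 replication genes, as in 43.1% of all genes. Of the 23 replication genes none was called, 9 fell, and Pcna and Ccne1 rose, while 16.9% of all genes rose, and their median was -0.12. This median was -0.068 under quantile normalization, -0.069 under upper quartile scaling and -0.058 with voom.

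Cdc20 changed most, at -0.69 ± 0.07 (adjusted p = 3.27e-05), followed by Bub1b at -0.60 ± 0.057 (adjusted p = 1.97e-05). The call of Bub1b was lost without RANKL replicate 1, at -0.56, and under quantile, upper quartile and voom scaling, and that of Cdc20 without RANKL replicate 2, at -0.58. The B-type cyclins came close to a call, with -0.53 ± 0.059 (adjusted p = 5.85e-05) for Ccnb2 and -0.48 ± 0.057 (adjusted p = 9.45e-05) for Ccnb1. Mki67 fell at -0.50 ± 0.064 (adjusted p = 0.000162), Birc5 at -0.39 ± 0.045 (adjusted p = 8.72e-05) and Kif23 at -0.34 ± 0.056 (adjusted p = 0.000821). Aurkb and Foxm1 did not pass the test, and their RANKL and RANKL + PRDX1 libraries overlapped, with 95% intervals of -0.26 to 0.027 and -0.26 to 0.086.

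Of the replication genes, Rrm1, Tyms and the helicase genes Mcm5, Mcm6 and Mcm7 fell with PRDX1 in the presence of RANKL, at -0.34, -0.29, -0.23, -0.23 and -0.22. Cdc45, Gins1, Gins2 and Fen1 made up the 9. Mcm2 and Mcm3 overlapped between the groups, with log2 fold changes of -0.028 and 0.034. Ccne1 rose with log2 fold change 0.36 ± 0.087, adjusted p = 0.00716, and its RANKL + PRDX1 libraries were the highest of the 8. Pcna rose with log2 fold change 0.20 ± 0.044, adjusted p = 0.00392. E2f1 was also highest in RANKL + PRDX1, with log2 fold change 0.18 ± 0.067, adjusted p = 0.0503, which did not pass the test.

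**Figure D5:**
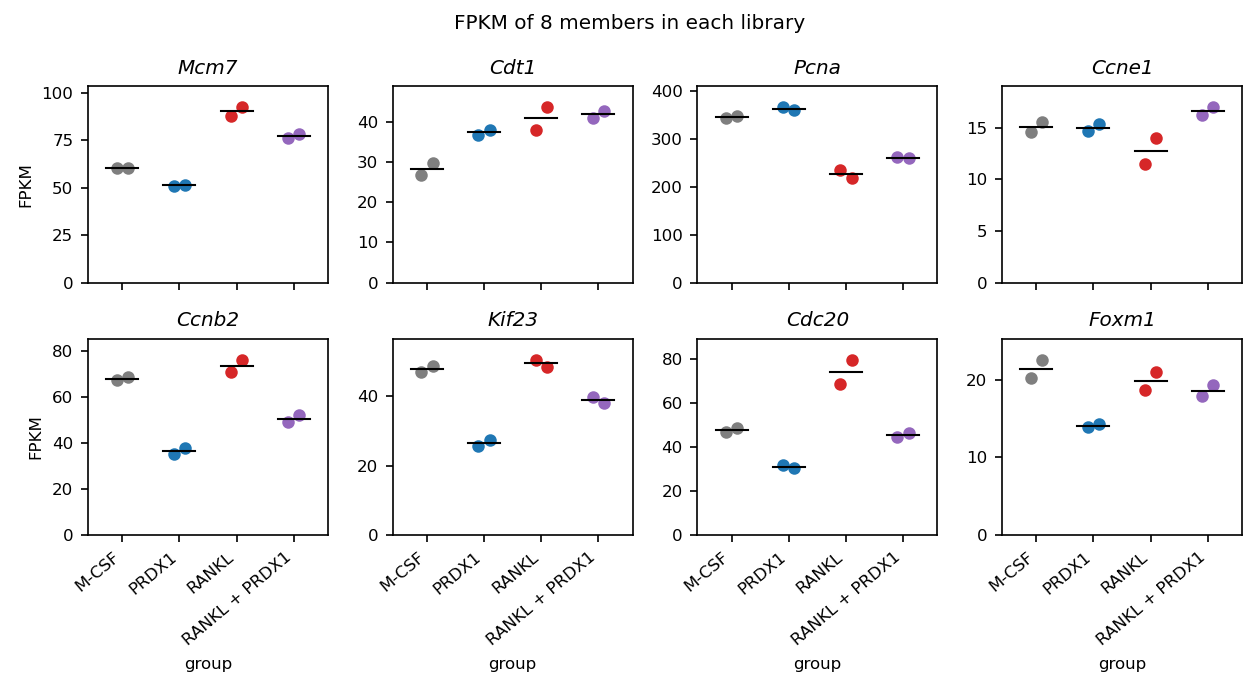
FPKM (vertical axes, from 0) of 4 replication genes (top) and 4 mitotic genes (bottom) in each library, with the group mean as a line. Ccnb2, Kif23, Cdc20 and Foxm1 are lowest in PRDX1, while Cdt1 is lowest in M-CSF and Pcna and Ccne1 are lowest in RANKL.

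The difference between the PRDX1 effects with and without RANKL was tested as an interaction. A positive value means a smaller fall, or a rise or larger rise, with RANKL present. It passed an adjusted p of 0.05 in 11 of the 45 members, a share near the 23.1% of all genes tested. It passed with a positive value in 10 of the 22 mitotic genes, against 11.2% of all genes tested. The median was 0.26 for the mitotic and 0.078 for the replication genes, against -0.0095 over all genes. The replication median was 0.033 without M-CSF replicate 1, 0.046 without M-CSF replicate 2 and 0.044 without PRDX1 replicate 2. Kif23 had 0.49 ± 0.079 (adjusted p = 0.00167), Foxm1 0.48 ± 0.11 (adjusted p = 0.0101) and Aurkb 0.40 ± 0.092 (adjusted p = 0.0119), the 3 largest among them. The others were Mki67, Ccnb2, Prc1, Top2a, Birc5, Ccna2 and Tpx2, at 0.25 to 0.35. Bub1, Cdc20, Aurka and Bub1b had values of 0.042, -0.081, 0.044 and 0.09, with adjusted p-values of 0.477 to 0.785. Of the replication genes only Cdt1 passed, with a negative value of -0.35 ± 0.11 (adjusted p = 0.0363), against 12% of all genes with a negative value. When single libraries were left out, the count of mitotic genes passing ranged from below 10 to above 10, and the count over all genes moved as well. The mitotic median was then 0.20 to 0.29. Cdt1 did not pass without M-CSF replicate 1, either PRDX1 replicate, RANKL replicate 2 or either RANKL + PRDX1 replicate.

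With RANKL alone, the shares of members that rose lay not far above that of all genes. Compared with M-CSF, 11 replication genes rose and 2 fell, and 12 mitotic genes rose and 1 fell, against 37% of all genes that rose and 22.9% that fell. Mcm10 and Cdc20 were called higher and Pcna lower, against 11.8% and 9.96% of all genes called in these directions. The median log2 fold changes were 0.19 for replication and 0.21 for mitotic genes, against 0.096 over all genes. Under quantile normalization they were 0.12 and 0.13, against 0.024 over all genes, and with voom 0.10 and 0.12, against 0.014. Under upper quartile scaling they were 0.13 and 0.14, against 0.037. Both RANKL libraries lay above both M-CSF libraries in 14 replication and 14 mitotic genes, as in 47.7% of all genes.

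Within these sets the increases were uneven. Cdc20 rose with log2 fold change 0.61 ± 0.07, adjusted p = 3.4e-05, and Mcm10 with log2 fold change 0.59 ± 0.063, adjusted p = 2.06e-05. Mcm7 rose with log2 fold change 0.57 ± 0.046, adjusted p = 3.09e-06, and its annotated exons share 12.6% of their bases with Ap4m1, Cops6 and 2 microRNAs. Mcm7 had 60.6 and 60.7 FPKM in M-CSF, 50.8 and 51.6 in PRDX1, 88.0 and 92.6 in RANKL and 76.5 and 78.2 in RANKL + PRDX1. Bub1 and Bub1b rose at 0.56 ± 0.062 (adjusted p = 2.52e-05) and 0.49 ± 0.057 (adjusted p = 3.89e-05). Mki67, Cdk1, Aurkb and Kif23 overlapped between RANKL and M-CSF, with log2 fold changes of 0.043, 0.053, -0.00063 and 0.047. Pcna fell with log2 fold change -0.61 ± 0.044, adjusted p = 1.1e-06, and Prc1 and Ccne1 fell at -0.15 ± 0.057 (adjusted p = 0.0487) and -0.23 ± 0.087 (adjusted p = 0.0412). The 3 calls did not hold under every setting: that of Mcm10 was lost without M-CSF replicate 1 (0.52) or RANKL replicate 2 (0.56), and those of Cdc20 (0.51) and Pcna (-0.56) without RANKL replicate 2. Without RANKL replicate 1, 4 replication genes were called. Neither Mcm10 nor Cdc20 was called under quantile, upper quartile or voom scaling, and Pcna was not called under quantile normalization (-0.58).

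In the presence of PRDX1, RANKL went with higher RNA of nearly all members. Compared with PRDX1 alone, 15 replication genes and 22 of 22 mitotic genes rose, against 26.2% of all genes, and Pcna fell. Both RANKL + PRDX1 libraries lay above both PRDX1 libraries in 43 of the 45 genes, all but Pcna and Gins2, as in 47.3% of all genes. The median log2 fold change was 0.29 for replication and 0.46 for mitotic genes, against 0.07 over all genes. Only Bub1 and Mcm7 were called, at 0.61 ± 0.062 (adjusted p = 4.47e-05) and 0.59 ± 0.046 (adjusted p = 8.12e-06), against 4.52% of all genes called higher, and neither call held without PRDX1 replicate 1 (0.58 and 0.57). That of Bub1 was also lost without RANKL + PRDX1 replicate 1 (0.58), that of Mcm7 without RANKL + PRDX1 replicate 2 (0.57), and both under quantile, upper quartile and voom scaling. Bub1b, Nusap1, Kif23 and Ube2c rose at 0.58, 0.58, 0.53 and 0.53, and Cdt1 had 0.16 ± 0.074 (adjusted p = 0.122). This comparison shares its PRDX1 libraries with the comparison of PRDX1 with M-CSF.

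With both agents added, the medians of replication and mitotic genes lay on different sides of M-CSF. Of the 45 genes none was called in RANKL + PRDX1 against M-CSF, while 12.8% of all genes were. By adjusted p, 8 replication genes were higher and 2 were lower, and 1 mitotic gene was higher and 11 were lower, against 24.7% and 19.5% of all genes. The medians were 0.13 for replication (0.086 without M-CSF replicate 1) and -0.15 for mitotic genes. Cdt1, Mcm10 and Mcm7 were higher, at 0.55 ± 0.074 (adjusted p = 0.000214), 0.54 ± 0.063 (adjusted p = 7.71e-05) and 0.35 ± 0.046 (adjusted p = 0.000196). Prc1, Mki67 and Ccnb2 were lower, at -0.47 ± 0.057 (adjusted p = 9.47e-05), -0.46 ± 0.064 (adjusted p = 0.000261) and -0.42 ± 0.059 (adjusted p = 0.000259). Bub1 was the mitotic gene that was higher, at 0.18 ± 0.062 (adjusted p = 0.0359). Without M-CSF replicate 2, 2 replication genes were called.

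RANKL alone and PRDX1 alone stood farthest apart. In RANKL against PRDX1, 18 of 22 mitotic genes were called higher, against 14.3% of all genes, with a median of 0.88. The largest differences were 1.22 ± 0.07 in Cdc20 and 1.18 ± 0.057 in Bub1b, and the 4 genes not called were Aurkb, Tpx2, Foxm1 and Prc1, at 0.47 to 0.56. Of the replication genes Mcm7 and Rrm1 were called higher, at 0.81 and 0.67, and Pcna lower, at -0.68, against 10.7% of all genes called lower. The median of the replication genes was 0.41, and over all genes it was 0.13. The replication genes called numbered 6 without RANKL replicate 1 or without RANKL replicate 2, and 5 without PRDX1 replicate 1.

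Lists of further cell cycle genes were chosen as background to the members. Of 50 other replication genes none was called with PRDX1 in the absence of RANKL, and 18 fell and 1 rose, against 17.6% and 12.2% of all genes tested, with a median log2 fold change of -0.14. Of 57 other mitotic genes 18 were called lower and 53 fell, against 1.99% and 17.6% of all genes, with a median of -0.51. The largest changes were in Depdc1a (-0.86 ± 0.079), Aspm (-0.80 ± 0.1), a spindle pole protein, and Hmmr (-0.80 ± 0.081), a spindle assembly factor. In the presence of RANKL, 34 of the 57 fell, against 25.6% of all genes, and only Cks2, a Cdk1-binding subunit, was called lower, at -0.74 ± 0.054, against 4.17%. Among other replication genes Dck, deoxycytidine kinase of the salvage pathway, was called higher, at 0.79 ± 0.075, as were 6.03% of all genes. CHR letters were in 33 of 49 matched promoters of the other mitotic genes (67.3%) and 5 of 40 of the other replication genes (12.5%), and E2F letters in 6 (12.2%) and 13 (32.5%).

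The medians of PRDX1 against M-CSF by promoter letters are given as a description, with no test. Of all tested genes with a matched promoter, the 1113 with CHR letters had a median log2 fold change of -0.055, the 8036 without them -0.038, and the 462 with both CHR letters and a CCAAT box -0.0997. The 405 with E2F letters had -0.076 and the 8744 without them -0.038. Of the mitotic members, the 13 with CHR letters had a median of -0.66 and the 5 without them had -0.62. The 8 replication members with E2F letters had a median of -0.22 and the 11 without them -0.12.

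Regulators of G1 and of cell cycle exit moved in several directions. With PRDX1 in the absence of RANKL, none of 10 G1 cyclin and kinase genes was called. Of the 10, 6 fell, against 17.6% of all genes, among them Ccnd1 at -0.48 ± 0.045 and Ccnd3 at -0.38 ± 0.075, both D-type cyclins. Myc, a growth-promoting transcription factor, rose at 0.18 ± 0.062 (adjusted p = 0.0497), while 12.2% of all genes rose. Of 20 genes of CDK inhibitors, pocket proteins and repressor E2Fs 3 were called lower, against 1.99% of all genes, all from genes of INK4 inhibitors of Cdk4 and Cdk6: Cdkn2a at -1.21 ± 0.11, Cdkn2b at -0.997 ± 0.18 and Cdkn2c at -0.68 ± 0.053. Cdkn2c had 48.4 and 46.3 FPKM in M-CSF, 29.3 and 28.9 in PRDX1, 30.7 and 31.6 in RANKL and 28.4 and 27.2 in RANKL + PRDX1, and M-CSF alone lay apart above the rest. Cdkn1a, which encodes p21, had 149 and 153 FPKM in M-CSF, 141 and 148 in PRDX1, 85.2 and 87.5 in RANKL and 119.9 and 128 in RANKL + PRDX1, and was called lower with RANKL without PRDX1, at -0.80 ± 0.049. Of 14 p53 target and antiproliferative genes 4 were called higher with PRDX1, against 3.8% of all genes, led by the stress genes Gadd45a (1.28 ± 0.092), Gadd45g (1.004 ± 0.092) and Gadd45b (0.74 ± 0.07). Phlda3 was called lower, at -0.72 ± 0.13. Gadd45a had 2.72 and 2.30 FPKM in M-CSF, 7.46 and 7.58 in PRDX1, 2.20 and 2.19 in RANKL and 8.32 and 7.25 in RANKL + PRDX1, with both groups given PRDX1 above both without it.

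RANKL without PRDX1 went with lower RNA of D-type cyclins, which carry the mitogen signal to Cdk4 and Cdk6. Ccnd2 had 13.2 and 11.7 FPKM in M-CSF, 12.6 and 13.2 in PRDX1, 0.693 and 0.959 in RANKL and 3.21 and 3.29 in RANKL + PRDX1, and was called lower at -2.89 ± 0.094. Ccnd1 had 281 and 289 FPKM in M-CSF, 198 and 209 in PRDX1, 173 and 180.4 in RANKL and 199 and 203 in RANKL + PRDX1, and was called lower at -0.69 ± 0.045. Myc was called higher, at 1.09 ± 0.062. Mybl2, which encodes the B-MYB partner of MuvB, had 8.11 and 10.6 FPKM in M-CSF, 7.77 and 7.45 in PRDX1, 17.6 and 19.2 in RANKL and 15.2 and 15.4 in RANKL + PRDX1, and was called higher at 0.91 ± 0.1 without and 0.92 ± 0.1 with PRDX1.

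Markers of other cells moved with PRDX1 at low levels. The summed level of 14 myeloid progenitor and granulocyte genes was 28.7 and 20.7 FPKM in M-CSF, 59.3 and 53.9 in PRDX1, 21.7 and 20.4 in RANKL and 43.5 and 40.2 in RANKL + PRDX1. Of its 14 genes 8 were tested, and 6 of them were called higher in PRDX1 than in M-CSF, against 3.8% of all genes tested. The largest in both groups with PRDX1 were S100a8 and S100a9, neutrophil genes, and Kit, which marks progenitors, was at 0.167 FPKM or less. Cd34, another progenitor marker, had 15.0 and 11.1 FPKM in M-CSF, 13.0 and 12.03 in PRDX1, 3.64 and 3.41 in RANKL and 3.39 and 3.49 in RANKL + PRDX1, with M-CSF and PRDX1 overlapping. The sum of 10 stromal genes was 13.4 and 17.1 FPKM in M-CSF, 27.7 and 27.9 in PRDX1, 13.4 and 15.4 in RANKL and 26.3 and 31.3 in RANKL + PRDX1, with 4 of 6 tested genes called higher in PRDX1, against the same 3.8%. Lymphoid markers summed to at most 2.31 FPKM, with Cd3e and Ncr1 listed at 0. The sum of the erythroid and megakaryocyte markers, 40.2 to 812 FPKM, was nearly all Pf4 and was lowest in RANKL. The part of such cells in the cell cycle results was not tested.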

How the data were processed

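RNA of 8 libraries, 2 in each of 4 groups, was sequenced. The library totals recovered from the deposited values were 27284693 to 46171786 reads. The deposited values are FPKM per gene (reads scaled to transcript length and to the total reads of the library). Per the submitters' processing notes and the table's header, the authors used HISAT2, HOMER and DESeq2 and counted exon reads on mm10 from both strands, with transcripts condensed to genes. Tool versions were not given in the sources used here. Without strand, reads of overlapping antisense genes cannot be told apart, and 13 of the 45 members share exon bases with another gene. This overlap was taken over all annotated exons of a gene. The counted transcript can be shorter and hold fewer of the shared bases.

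The design was fitted with limma 3.58.1 (R 4.3.3) on log2(FPKM + 1), with an intensity trend, as 1 model of 4 groups over 11700 genes with a mean of at least 0.5 FPKM, leaving 4 residual degrees of freedom. Such fold changes understate those of low genes. P-values were adjusted by Benjamini-Hochberg over all genes tested, and a call needed an adjusted p under 0.05 together with a fold change of 1.5 or more, or by adjusted p alone for the interaction. The code was tested on simulated data. Reads were recovered from FPKM and transcript length, came out whole within 0.2 read in all of the 6995 to 9037 genes a library in which this could be checked, and were used with voom as an alternative. Other alternatives were a pseudocount of 0.1, no filter, a minimum of 1 FPKM, quantile and upper quartile scaling, fits of the groups compared alone, a replicate block, and leaving out each library.

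The members and all gene lists were chosen with earlier results of these data known. Values in every library are given for 20 members fixed by role and for up to 3 members of each set that changed most among those called with PRDX1 or RANKL, each with and without the other, or in the interaction. In other lists, up to 3 called genes a direction are named, and others, such as Ccnd1, Ccnd3 and Myc with PRDX1, Cd34, Kit, S100a8, S100a9 and genes listed at 0, were named after their values were seen. Promoters were searched in RefSeq sequences on GRCm38.p6, from 250 bases before to 50 after the start. The groups came from the labels, and no library was left out of the main fit.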

Additional observations from a re-analysis of the deposited data

Results flagged for a closer look

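Among the 45 members, 11 had a PRDX1 effect that differed between cultures with and without RANKL in the interaction test of limma (adjusted p under 0.05 over all genes tested). The values are the log2 fold change with PRDX1 in the presence of RANKL minus that in its absence, with 2 libraries in each group. In 10 mitotic genes the value was positive, and the fall with PRDX1 was smaller with RANKL. It was 0.49 in Kif23, 0.48 in Foxm1, 0.40 in Aurkb, 0.35 in Mki67, 0.34 in Ccnb2 and 0.34 in Prc1. It was 0.28 in Top2a, 0.27 in Birc5, 0.25 in Ccna2 and 0.25 in Tpx2. In Cdt1, a replication gene that rose with PRDX1 in the absence of RANKL, the value was negative, at -0.35. By the same rule 2707 of the 11700 genes tested differed, or 23.1%, so the pooled share of the members lay near that of all genes. By set, 10 of 22 mitotic genes passed with a positive value, against 11.2% of all genes. Of the 23 replication genes 1 passed with a negative value, against 12%. Groups of 2 libraries were too small for a test of single libraries that stand apart.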

How the results depend on the processing

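For 26 members, in the 4 comparisons that add PRDX1 or RANKL with and without the other and in the interaction, 2054 values were computed under other settings. Of these 1962 stayed on their side of the threshold, 66 called values were no longer called and 26 became called. No called value reversed. Among the 1962, 41 values that were not called changed sign, none with an adjusted p under 0.05. The count of replication genes called with PRDX1 in the absence of RANKL was 0 under every setting run. The cause of the shifts that follow was not tested.

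Under quantile normalization the medians of the mitotic genes were -0.56 (PRDX1 without RANKL), -0.31 (PRDX1 with RANKL), 0.13 (RANKL without PRDX1), 0.40 (RANKL with PRDX1), -0.17 (RANKL + PRDX1 against M-CSF), 0.78 (RANKL against PRDX1) and 0.31 (interaction), and those of the replication genes 0.12, 0.22 and 0.30 in RANKL without PRDX1, RANKL with PRDX1 and RANKL against PRDX1. Under upper quartile scaling the mitotic medians were -0.57, -0.33, 0.14, 0.40, -0.17 and 0.78 in the first 6 of these, and the replication medians 0.13 in RANKL without PRDX1 and 0.31 in RANKL against PRDX1. With voom they were -0.57, -0.32, 0.12, 0.39, -0.18, 0.75 and 0.28, and 0.10, 0.23 and 0.29. The median of all genes moved by more than 0.1 in 1 case, RANKL against PRDX1 with voom (-0.12). Under each of these 3 scalings 1 mitotic gene was called in PRDX1 with RANKL, 0 in RANKL without PRDX1, and 0 mitotic and 0 replication genes in RANKL with PRDX1. Replication genes called in RANKL without PRDX1 numbered 0 (quantile), 1 (upper quartile) and 1 (voom), and in the interaction 2, 2 and 5. A pseudocount of 0.1 gave 3 mitotic calls in RANKL with PRDX1 and a mitotic median of 0.90 in RANKL against PRDX1. In the interaction 0 replication genes passed with no filter and 2 with a minimum of 1 FPKM.

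When single libraries were left out, the lowest and highest values are given in the order PRDX1 without RANKL, PRDX1 with RANKL, RANKL without PRDX1, RANKL with PRDX1, RANKL + PRDX1 against M-CSF, RANKL against PRDX1 and the interaction. The library left alone in its group is then assumed to vary like those of the other groups. Replication genes called numbered 0 to 0, 0 to 0, 0 to 4, 0 to 1, 0 to 2, 3 to 6 and 0 to 5. Mitotic genes called numbered 12 to 13, 1 to 2, 1 to 1, 0 to 2, 0 to 0, 17 to 18 and 4 to 13. The replication median was -0.20 to -0.17, -0.15 to -0.10, 0.16 to 0.27, 0.25 to 0.31, 0.086 to 0.16, 0.39 to 0.46 and 0.033 to 0.084. The mitotic median was -0.62 to -0.60, -0.42 to -0.35, 0.16 to 0.24, 0.42 to 0.47, -0.18 to -0.15, 0.83 to 0.90 and 0.20 to 0.29. All genes called numbered 682 to 743, 1181 to 1256, 2547 to 2615, 994 to 1038, 1487 to 1567, 2930 to 3001 and 1798 to 2732.

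The columns of the deposited values carry the replicate numbers of the labels, but the input directories named in the header carry other numbers. Deviations of libraries with the same replicate number correlated at 0.0085 to 0.096 over 11700 genes. The numbers are therefore not taken to pair the libraries. With the replicate block 3 replication and 12 mitotic genes passed in the interaction, and 676 genes were called in PRDX1 without RANKL against 678 without the block.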
